A study of Mus musculus with 8 samples.

Results

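The last step of a time course of induced Klf4 expression was examined, the change from 12h to 24h in mouse acute myeloid leukaemia cells. It rests on 4 of the 8 libraries of the series, the 2 labelled 12h (replicates 1 and 2) and the 2 labelled 24h (replicates 1 and 2), which were chosen by label alone. The cells, called TetO-Klf4-AML in the labels, carried the MLL-AF9 fusion oncogene, a GFP marker and a Klf4 transgene that doxycycline switches on. They were sorted as GFP-positive cells from leukaemic mice, with bone marrow given as the tissue and C57BL/7 as the strain label. Cells of all 4 time points carried the same oncogene and transgene. Time is the only difference between 12h and 24h that the labels give. The labels do not state from which event the hours count, the age of the mice, the doxycycline dose, or whether a library came from 1 mouse or a pool. A doxycycline control lacking the transgene was not analysed here, and the 0h libraries are the only background. The labels name no separate mouse for each replicate. Every p-value therefore reflects how far these libraries spread, and that spread may be technical.

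KLF4 is a zinc finger transcription factor that binds GC-rich and CACCC-type sites and is known in blood for a role in monocyte differentiation. MLL-AF9 joins the DNA-binding part of MLL to AF9, keeps HOXA and MEIS1 genes active, and holds myeloid progenitors in a dividing, immature state. A second regulator enters the results below. ATF4 is a transcription factor made when the kinases of the integrated stress response phosphorylate eIF2alpha, for example when amino acids are short or the endoplasmic reticulum is loaded. It pairs with C/EBP proteins on composite C/EBP-ATF elements and raises amino acid transporters, amino acid enzymes and tRNA synthetases.

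The 4 libraries held between 23416697 and 26041347 gene counts, and the replicates were not copies: their chi-square divided by its degrees of freedom was 1.94 for the 12h pair and 2.85 for the 24h pair, above the value of pure counting error. Levels are given as CPM, read counts scaled to a common library size with TMM, the library scaling of edgeR. A change is a log2 fold change of 24h over 12h with its SE, and a gene was called when edgeR's quasi-likelihood test gave a Benjamini-Hochberg adjusted p under 0.05 over the 14263 genes tested. Because each time point has only 2 libraries, every call was repeated with each of the 8 libraries left out in turn, and a call that passed in all 8 of these fits is described as held. Markers of the labelled cell were present in all 12 of 12 tested, with a summed level of 2356 and 2367 CPM at 12h and of 2303 and 2307 CPM at 24h. The defining T cell genes Cd3e, Cd3g and Trbc2 and the B cell genes Ms4a1 and Pax5 had 0 counts in all 8 libraries. Other members of the marker lists were detected. On the B cell list Cd79b had 195 and 224 counts at 12h and 204 and 192 at 24h. Ighm had 212 and 191 counts at 12h and 167 and 197 at 24h. On the endothelial and stromal list Pecam1 had 3608 and 3640 counts at 12h and 3676 and 3581 at 24h. Pdgfrb, on the same list, had 1165 and 1145 counts at 12h and 1096 and 1125 at 24h. On the dendritic cell list Tcf4 had 5799 and 5739 counts at 12h and 6071 and 6064 at 24h. Of the marker lists of other cell types only Lck, on the T cell list, was called (0.47), and the summed level of that list was 6.81 and 7.60 CPM at 12h and 9.83 and 9.76 CPM at 24h, whose part in the results was not tested. Fragments counted to no gene moved with time, at 8.31% and 8.95% at 12h and 9.04% and 9.27% at 24h, and their part in the results was not tested.

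Klf4 itself declined over this step while 921 genes were called, 6.46% of those tested. Of these 487 were higher at 24h (3.41%) and 434 lower (3.04%). Klf4 stood at 114 and 111 CPM at 12h and at 76.9 and 78.8 CPM at 24h, against 151 ± 0.474 CPM at 6h and 3.57 ± 1.21 CPM at 0h (SD, n = 2). Both 24h libraries lay below both 12h libraries and far above 0h. The fall was 0.53 ± 0.05 on the log2 scale with an edgeR adjusted p = 2.8e-09, and it held. Reads of the transgene and of the cells' own Klf4 are not separated.

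The late step was smaller than the steps before it in the number of calls, with 2613 genes (18.3%) called at 6h against 0h and 2947 (20.7%, with 10.9% higher and 9.79% lower) at 12h against 6h. The time points are unevenly spaced, and the late step covers a longer interval than either earlier step. Most late changes were small. The median rise among called genes was 0.30 and the median fall was -0.24 on the log2 scale, and the median of all genes tested was 0.01. At least 2-fold changes numbered 69 rises (0.484%) and 22 falls (0.154%), and 41 genes (0.287%) passed a test against a fold of 1.5, 36 of them higher (0.252%) and 5 lower (0.0351%). The number of calls depended on single libraries, with 367 without 12h replicate 1, 389 without 12h replicate 2 and 443 without 24h replicate 2. Falls numbered 683 without 6h replicate 1. Genes past a fold of 1.5 numbered 26 without 12h replicate 1, 24 without 12h replicate 2, 25 without 24h replicate 1 and 27 without 24h replicate 2. In all 216 calls held, 138 higher and 78 lower, and DESeq2 made 445 calls. Rises were 52.9% of the calls, 41.4% with no filter on low counts and 38.5% after correcting for GC content and length and centring on the average gene.

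**Figure D1:**
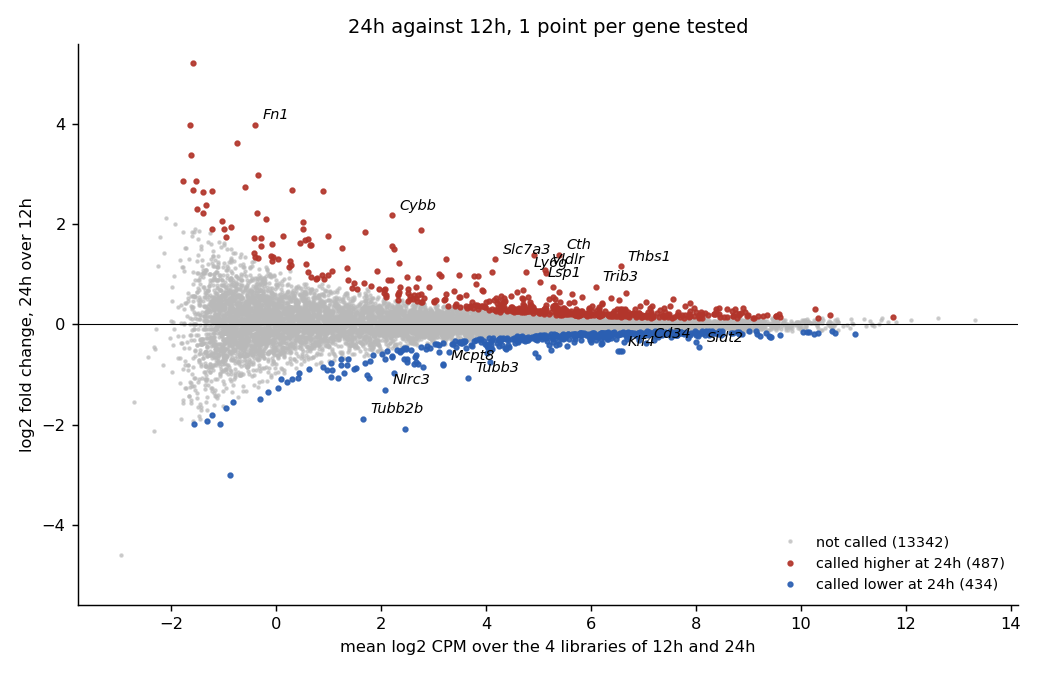
Log2 fold change of 24h over 12h (vertical axis) against the mean log2 CPM of the 4 libraries (horizontal axis), 1 point per gene tested, red for 487 genes called higher, blue for 434 called lower and grey for the rest. Most called genes lie close to 0, large changes are mostly rises of genes at low levels, and Klf4 sits among the falls at -0.53.

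Genes of the ATF4 list rose together while Klf4 fell, as most had in the first step, when Klf4 rose. Of 40 listed genes 39 were tested, 32 were called higher (82.1%, against 3.41% of all genes) and none lower, also at an unadjusted p under 0.05. The median change of the list was 0.31. At 6h against 0h 35 of the 39 had been called higher (9.74% of all genes) and 0 lower, with a median of 0.46. At 12h against 6h 27 were called higher (10.9% of all genes) and 0 lower, with a median of 0.23. The late step tested lower than the first for 16 members and higher for 2 (4.98% and 2.27% of all genes). Against the second step 2 were lower and 7 higher (2.66% and 1.70% of all genes). Both 24h libraries lay above both 12h libraries for 37 of the 39. Over all genes tested the libraries of 12h and 24h did not overlap, in either direction, for 49.2%. In 23 of the 32 the call held, and DESeq2 called 29 higher and 0 lower.

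Amino acid transporters made up 9 of the tested members and 8 rose. Slc7a3, a carrier of arginine and lysine, was at 11.6 and 11.3 CPM at 12h and at 27.7 and 28.9 CPM at 24h. Its rise of 1.31 ± 0.09 had an edgeR adjusted p = 1.6e-13 and held. Slc7a11, which imports cystine in exchange for glutamate, went from 34.6 and 32.5 to 53.1 and 52.2 CPM (0.65 ± 0.06). The glycine transporter Slc6a9 rose by 0.57 ± 0.09 and the neutral amino acid carrier Slc1a4 by 0.54 ± 0.06. Slc7a5 and Slc3a2, the chains of the leucine carrier LAT1, rose by 0.33 each, with SEs of 0.04. All of these calls held. Slc38a2 was called higher (0.14), a call lost without 12h replicate 2 at an edgeR adjusted p = 0.27, and Slc7a1 was not called (0.12).

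Enzymes of amino acid and one-carbon metabolism were called higher in 9 of 11 cases. Cth, which makes cysteine from cystathionine, had the most marked rise on the list. Its libraries stood at 26.1 and 25.6 CPM at 12h and at 66.9 and 68.8 CPM at 24h, after 6.58 and 6.45 CPM at 0h. The change was 1.39 ± 0.07 with an edgeR adjusted p = 3.1e-18, and it held. Aldh1l2, a mitochondrial folate enzyme, rose by 0.75 ± 0.06, the alanine transaminase Gpt2 by 0.45 ± 0.04, the mitochondrial phosphoenolpyruvate carboxykinase Pck2 by 0.42 ± 0.04 and asparagine synthetase Asns by 0.31 ± 0.04. These 4 calls held. Within serine synthesis the changes were smaller. Phgdh rose by 0.17 and Psph by 0.28, calls lost without 12h replicate 2 (adjusted p = 0.24) and without 12h replicate 1 (adjusted p = 0.33) in edgeR, and Psat1 was not called (0.09).

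Regulators on the list rose in 9 of 12 cases. Trib3, a pseudokinase that restrains ATF4, stood at 51.1 and 53.3 CPM at 12h and at 89.8 and 86.1 CPM at 24h, a rise of 0.75 ± 0.05 (edgeR adjusted p = 7.7e-13). Ddit3, which encodes the stress factor CHOP, rose by 0.69 ± 0.10. Ppp1r15a, a subunit of the phosphatase that reverses eIF2alpha phosphorylation, rose by 0.52 ± 0.08, and Chac1, which degrades glutathione, by 0.38 ± 0.06. All 4 calls held. Atf4 mRNA moved little, from 728 and 734 to 806 and 823 CPM (0.16 ± 0.04), and its call was lost without 12h replicate 1 at an edgeR adjusted p = 0.16. ATF4 is controlled mainly in translation, which these files do not measure. Among receptors and secreted proteins Vldlr, a lipoprotein receptor, went from 22.7 and 24.5 to 49.9 and 50.9 CPM (1.09 ± 0.07, edgeR adjusted p = 2.1e-14), and the secreted glycoprotein Stc2 rose by 0.63 ± 0.05. Both calls held. The secreted factor Gdf15, at 0.336 and 0.334 CPM at 12h and 0.606 and 0.565 CPM at 24h, was not called (0.80 ± 0.49, edgeR adjusted p = 0.38).

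**Figure D2:**
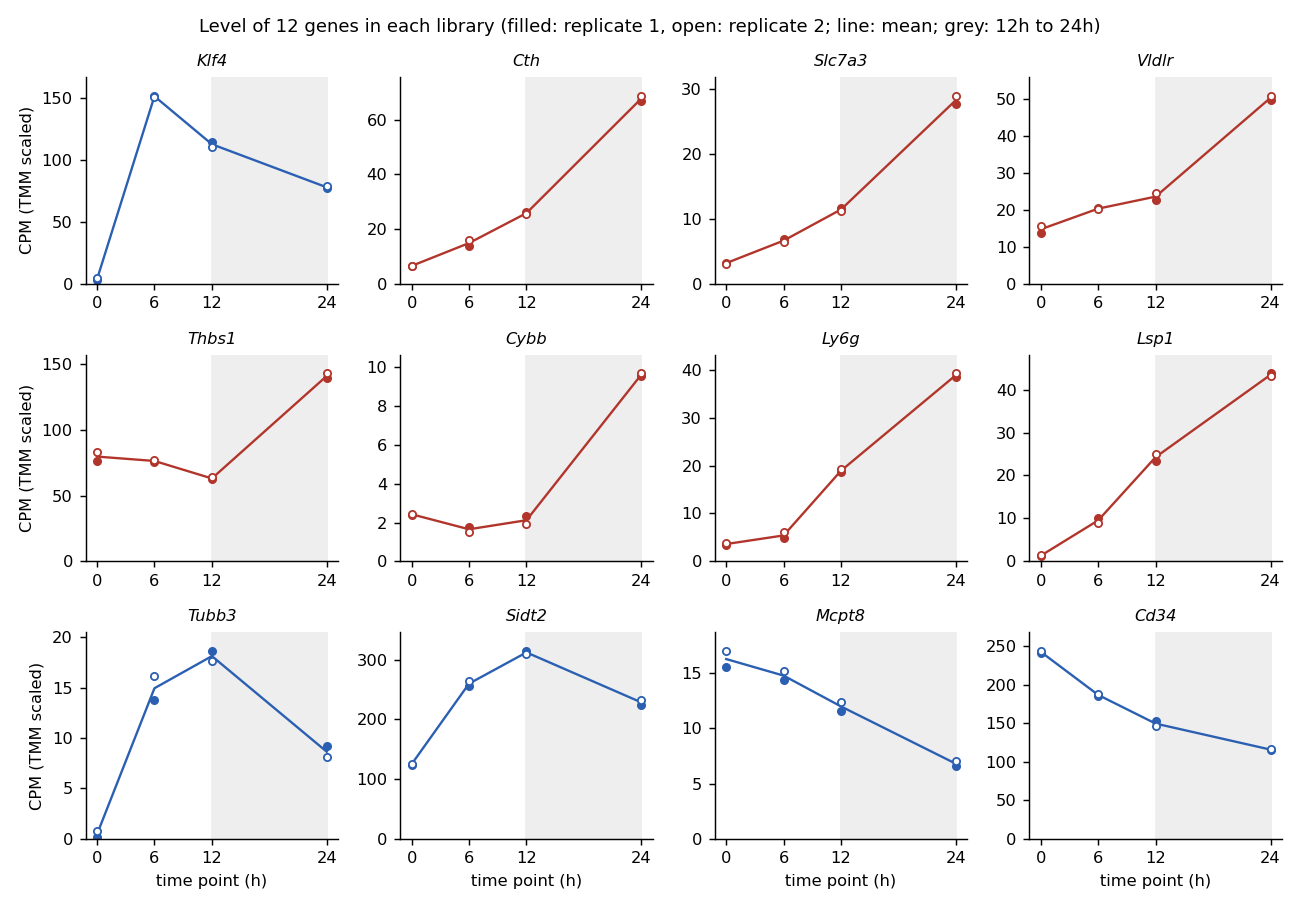
CPM (vertical axis, linear from 0, TMM scaled) against the time point in hours for 12 genes, with filled points for replicate 1, open points for replicate 2, lines through the means and grey shading over 12h to 24h. Red genes were higher and blue genes lower at 24h than at 12h: Cth climbs at each step to 68.8 CPM, Thbs1 and Cybb rise in the shaded step, and Klf4, Tubb3 and Sidt2 turn down after an earlier rise.

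The promoters of 4 called members of the list, Chac1, Slc7a11, Slc1a4 and Vldlr, and of Atf3 and Dock9, called genes outside it, are shown because each holds the composite C/EBP-ATF element. The calls of Atf3 (0.83) and Dock9 (0.69) were lost without 12h replicate 1, at an edgeR adjusted p of 0.21 and 0.22. The sequences are from RefSeq on GRCm38.p6 and run from 250 bases before to 50 bases from the start site on, 5′ to 3′ on the gene's strand. Capitals mark the element TTGCATCA or its reverse complement. Chac1 lies at chr2:119350992-119351291 (plus strand), Slc7a11 at chr3:50443564-50443863 (minus strand), Slc1a4 at chr11:20332664-20332963 (minus strand), Vldlr at chr19:27216770-27217069 (plus strand), Atf3 at chr1:191183284-191183583 (minus strand) and Dock9 at chr14:121738880-121739179 (minus strand).
Chac1: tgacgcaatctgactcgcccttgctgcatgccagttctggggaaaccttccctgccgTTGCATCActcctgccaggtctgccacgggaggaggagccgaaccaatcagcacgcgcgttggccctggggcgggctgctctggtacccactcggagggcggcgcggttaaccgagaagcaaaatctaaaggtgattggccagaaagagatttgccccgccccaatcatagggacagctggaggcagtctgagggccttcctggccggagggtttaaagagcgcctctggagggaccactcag
Slc7a11: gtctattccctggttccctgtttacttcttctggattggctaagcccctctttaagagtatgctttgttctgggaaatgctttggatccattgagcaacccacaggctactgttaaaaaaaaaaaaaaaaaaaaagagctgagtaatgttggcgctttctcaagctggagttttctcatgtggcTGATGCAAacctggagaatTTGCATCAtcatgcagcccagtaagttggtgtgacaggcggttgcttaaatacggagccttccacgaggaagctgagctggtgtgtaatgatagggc
Slc1a4: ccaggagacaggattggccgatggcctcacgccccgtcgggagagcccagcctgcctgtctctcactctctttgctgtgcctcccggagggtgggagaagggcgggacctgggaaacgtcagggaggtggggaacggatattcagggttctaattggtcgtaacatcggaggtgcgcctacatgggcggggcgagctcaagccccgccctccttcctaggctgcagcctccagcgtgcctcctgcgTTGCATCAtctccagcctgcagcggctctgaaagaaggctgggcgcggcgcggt
Vldlr: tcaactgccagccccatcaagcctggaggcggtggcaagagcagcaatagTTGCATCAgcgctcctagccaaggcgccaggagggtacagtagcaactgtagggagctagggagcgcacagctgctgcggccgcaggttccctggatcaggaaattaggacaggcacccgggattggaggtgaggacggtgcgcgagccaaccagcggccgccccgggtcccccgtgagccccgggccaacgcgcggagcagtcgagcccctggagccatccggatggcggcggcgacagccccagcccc
Atf3: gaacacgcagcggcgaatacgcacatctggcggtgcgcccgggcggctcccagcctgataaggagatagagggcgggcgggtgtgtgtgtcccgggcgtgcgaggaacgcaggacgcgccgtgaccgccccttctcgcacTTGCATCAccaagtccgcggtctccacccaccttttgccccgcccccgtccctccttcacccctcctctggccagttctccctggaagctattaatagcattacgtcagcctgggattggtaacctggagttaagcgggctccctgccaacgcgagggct
Dock9: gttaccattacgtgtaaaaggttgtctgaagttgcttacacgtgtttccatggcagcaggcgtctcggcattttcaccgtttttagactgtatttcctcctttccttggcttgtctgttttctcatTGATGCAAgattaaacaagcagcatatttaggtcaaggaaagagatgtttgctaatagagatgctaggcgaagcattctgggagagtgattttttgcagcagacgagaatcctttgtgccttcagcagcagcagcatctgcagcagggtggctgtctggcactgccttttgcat

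Slc7a11 has 2 copies in this window, the other 5 promoters 1 each. Searched on both strands with the letters TTGCATCA, the element was in 0.686% of 12833 promoters of tested genes, in 4.77% of 461 promoters of genes called higher at 24h and in 0.236% of 423 promoters of genes called lower. On the ATF4 list it was in 4 of 29 promoters of called members (13.8%) and in 5 of 38 of tested members (13.2%). Most promoters of the list thus lack these letters in the window. Outside the ATF4 list the share in genes called higher was 4.17%, from 17 genes. These were the tRNA synthetase genes Iars, Tars, Yars and Aars, the proline enzyme Pycr1, the cationic amino acid exchanger Slc7a7, Got1, Atf3, Jdp2, Gadd45g, Herpud1, Dock9, Bcl2a1a, Pi16, Samd8, Dusp11 and 4930438A08Rik. Of the 17, 12 (70.6%) were also called higher at 6h against 0h, as were 39.6% of all late rises. The match is a description of letters in a window. For comparison, a KLF site written GGGNGTGG was in 23% of all promoters, in 23.4% of those of genes called higher and in 23.6% of those of genes called lower. Promoters were on hand for 10090 of the tested genes.

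Pycr1, which closes proline synthesis, went from 31.5 and 29.9 to 43.7 and 43.9 CPM (0.51 ± 0.07, edgeR adjusted p = 6.9e-07). Slc7a7 went from 17.1 and 17.5 to 23.5 and 24.3 CPM (0.46 ± 0.09). The cytosolic tRNA synthetases, which charge tRNAs with amino acids, were called higher in 11 of 20 cases (55%, against 3.41% of all genes). None was called lower, and the median was 0.13. At 6h against 0h 13 had been called higher and 2 lower (9.74% and 8.58% of all genes). At 12h against 6h 2 were called higher and 5 lower (10.9% and 9.79% of all genes). The 4 on the ATF4 list, Gars, Wars, Sars and Nars, are among the 11. Sars rose by 0.25 ± 0.04, Eprs by 0.24 ± 0.04, Gars by 0.23 ± 0.04 and Iars by 0.21 ± 0.04, and these calls held. Kars stayed at 263 and 264 CPM at 12h and 264 and 264 CPM at 24h and was not called. Leaving out 12h replicate 1 gave 5 calls, and leaving out 12h replicate 2, 24h replicate 1 or 24h replicate 2 gave 6.

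**Figure D3:**
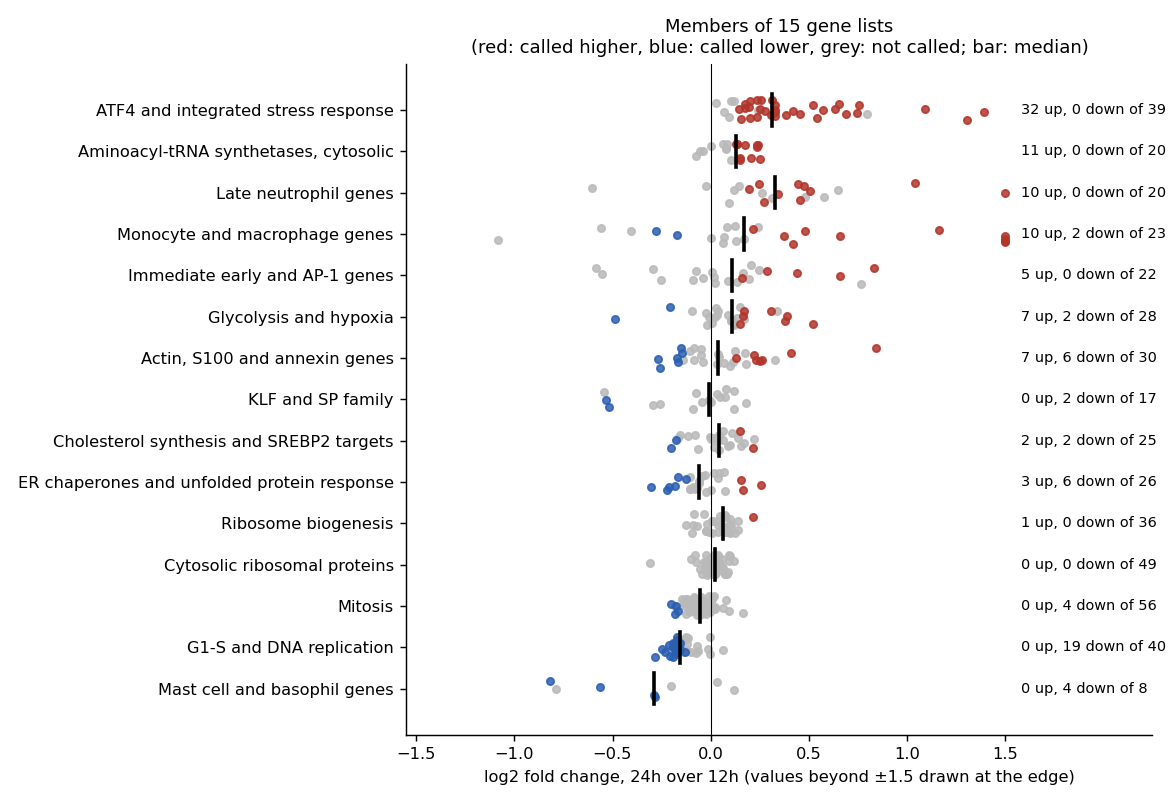
Log2 fold change of 24h over 12h (horizontal axis, values beyond 1.5 in size drawn at the edge) for the tested members of 15 gene lists, 1 point per gene, red if called higher, blue if called lower and grey if not called, with a black bar at each list's median. The ATF4 list lies to the right with 32 of 39 members called higher, the G1-S list to the left with 19 of 40 called lower, and ribosomal proteins sit around 0 with no call.

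Outside the ATF4 list the named rises with the largest changes included myeloid surface proteins. Cybb (ENSMUSG00000015340, X chromosome), the membrane subunit of the phagocyte NADPH oxidase, was at 2.31 and 1.92 CPM at 12h and at 9.58 and 9.69 CPM at 24h. It had been at 2.43 ± 0.0197 CPM at 0h and 1.65 ± 0.164 CPM at 6h, and was not called in either earlier step. The late rise was 2.18 ± 0.16. Its edgeR adjusted p was 3e-12. Thbs1 (chromosome 2), which encodes the secreted matrix protein thrombospondin-1, had been at 79.7 ± 4.96 CPM at 0h and went from 62.3 and 63.8 CPM at 12h to 139 and 143 CPM at 24h. The change was 1.16 ± 0.05, with an edgeR adjusted p = 2.4e-19. The endocytic receptor Lrp1 went from 23.6 and 25.5 to 49.6 and 50.2 CPM (1.02 ± 0.07). Ly6g, a surface protein of neutrophils, went from 18.6 and 19.2 to 38.6 and 39.3 CPM (1.04 ± 0.08). Ly6g belongs to a family of near copies, so its reads may be shared. The calls of these 4 genes held.

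The other rises chosen by size included genes with no counts at 0h. Bglap2, an osteocalcin gene with near copies that may share its reads, had 0 counts at 0h and went from 3.11 and 3.84 to 12.1 and 13.8 CPM (1.89 ± 0.15). Lypd2, of the Ly6 family, had 0 counts at 0h and went from 2.44 and 2.84 to 7.42 and 8.24 CPM (1.56 ± 0.17). The annexin gene Anxa8 rose by 1.31 ± 0.13, the cytochrome oxidase subunit Cox6a2 by 1.22 ± 0.16, and Extl1, of the exostosin family, by 1.06 ± 0.09. Lsp1, a leukocyte actin-binding protein, rose at each step, from 1.21 and 1.38 CPM at 0h to 23.5 and 25.1 CPM at 12h and 43.8 and 43.2 CPM at 24h (0.84 ± 0.07 for the last step). All of these calls held.

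Genes of mature neutrophils and of monocytes and macrophages were partly higher at 24h. In bulk RNA, more cells of a type and more RNA per cell cannot be told apart. On the late neutrophil list 10 of 20 tested members were called higher (50%, against 3.41% of all genes). None was called lower, also at an unadjusted p under 0.05, and the median was 0.33. The list's summed level went from 425 and 427 to 519 and 526 CPM. Ngp, a granule protein, went from 45.6 and 41.7 to 59.0 and 60.7 CPM (0.46 ± 0.06, edgeR adjusted p = 1.1e-06), and Mmp9, a secreted protease, rose by 1.68 ± 0.30 from 37 counts at 12h to 128 at 24h. Ngp, Mmp9, Ly6g and Pglyrp1 held. S100a9 rose by 0.34 ± 0.07, a call lost without 12h replicate 2 (edgeR adjusted p = 0.14). Lcn2 and Ltf, further granule proteins, were called at 0.44 and 0.47 with edgeR adjusted p = 0.048 and adjusted p = 0.049. Both calls were lost at an edgeR adjusted p = 0.31, Lcn2 without 12h replicate 1 and Ltf without 12h replicate 2. Cxcr2 and Mmp8 were not called. The count fell to 6 without 12h replicate 1, to 4 without 12h replicate 2 and to 6 without 24h replicate 1, and was 5 by DESeq2.

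Of 23 tested monocyte and macrophage genes 10 were called higher and 2 lower, with a median of 0.17. Over all genes 3.41% were called higher and 3.04% lower. Fn1, fibronectin, had 4 and 3 counts at 12h and 64 and 59 counts at 24h, a ratio of depth-scaled counts of 16.3 with a 95% counting interval of 7.70 to 41.5. Its call held, as did those of Thbs1 and of Nr4a1 (0.66 ± 0.11), a nuclear receptor. Fn1, and Msr1 and Maf below, passed the count filter only through the 24h libraries, where they are high. Their calls, and their part in the 10 rises, are therefore no independent support. Csf1r, the receptor for macrophage colony-stimulating factor, went from 8 and 11 counts to 40 and 28 counts, a ratio of 3.33 (1.98 to 5.86), after 26 and 21 counts at 0h. The scavenger receptor Msr1 went from 6 to 35 summed counts and the transcription factor Maf from 4 to 29. The calls of these 3 were lost without a library, with an edgeR adjusted p of 0.091 for Csf1r and 0.15 for Msr1 without 12h replicate 1 and of 0.12 for Maf without 12h replicate 2. The 2 falls were in Adgre1, which encodes F4/80 (49.6 and 49.7 to 42.7 and 39.0 CPM, -0.28 ± 0.06), and the Fc receptor Fcgr3 (-0.17 ± 0.05). Their calls were lost without 24h replicate 2 (edgeR adjusted p = 0.087) and without 12h replicate 1 (edgeR adjusted p = 0.29). Of the 35 members 12 had too few counts to be tested. Among these C1qa, C1qc and Marco had 0 counts in all libraries, Mrc1 had 9 counts at 12h and 8 at 24h, Cx3cr1 had 1 and 8, and C1qb, with 0 counts at 0h, had 12 and 23. The summed level of the list was 1008 and 1013 CPM at 12h and 1121 and 1128 CPM at 24h. The count higher was 5 without 12h replicate 1, 6 without 12h replicate 2 or 24h replicate 1, and 3 by DESeq2.

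Progenitor and granule genes of the leukaemia moved both ways. Mpo, the myeloperoxidase of primary granules, rose from 33.7 and 33.8 to 44.8 and 42.8 CPM (0.38 ± 0.06, edgeR adjusted p = 0.00014). Ly6c2, a surface protein of monocytes with near copies, rose by 0.31 ± 0.04. The progenitor antigen Cd34 fell from 153 and 146 to 115 and 117 CPM (-0.37 ± 0.04, edgeR adjusted p = 1.1e-07), and Plac8 fell by 0.24 ± 0.04. Among 27 tested myeloid transcription factors 2 were called higher, Cebpg (0.20) and Gfi1 (0.16), and 3 lower, Irf8, Tfec (-0.29) and Nfe2 (-0.21). In all 18.5% of these factors were called, against 6.46% of all genes. Irf8, a factor of monocyte and dendritic cell development, fell from 68.1 and 72.5 to 58.0 and 55.5 CPM (-0.31 ± 0.05). The calls of Mpo, Ly6c2, Cd34, Plac8 and Irf8 held. Those of Cebpg, Gfi1 and Nfe2 were lost without 12h replicate 1, at an edgeR adjusted p of 0.11, 0.34 and 0.052, and that of Tfec without 12h replicate 2 (edgeR adjusted p = 0.11). Of 22 tested genes of the MLL-AF9 programme 18.2% were called, against 6.46% of all genes. Called higher were 2, Myc (0.20) and Bcl2 (0.25), and 2 were called lower, Eya1 (-0.20) and Mef2c (-0.23). None of these 4 calls held. The edgeR adjusted p reached 0.07 for Myc without 12h replicate 2, 0.42 for Bcl2 and 0.17 for Eya1 without 12h replicate 1, and 0.32 for Mef2c without 24h replicate 2.

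**Figure D4:**
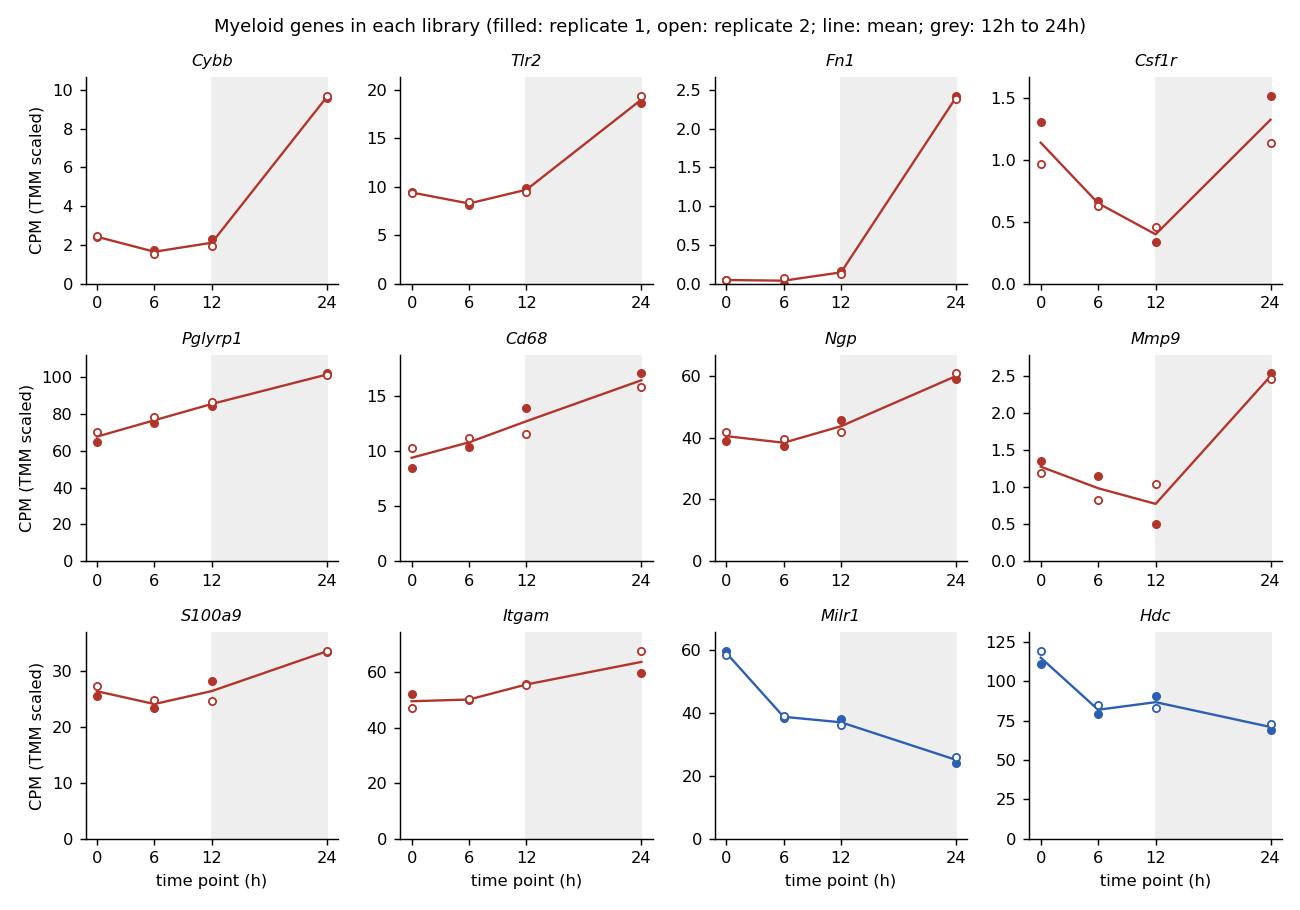
CPM (vertical axis, linear from 0, TMM scaled) against the time point in hours for 12 myeloid genes, with filled points for replicate 1, open points for replicate 2, lines through the means and grey shading over 12h to 24h. Cybb, Tlr2 and Fn1 lie higher at the end of the shaded step than at any earlier time, Csf1r and Mmp9 have their lowest means at 12h, and Milr1 and Hdc are lowest at 24h.

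Among called genes with a mean log2 CPM of at least 2, the rule for naming falls began with Nlrc3, an intracellular sensor family member. It went from 6.52 and 6.43 to 2.46 and 2.79 CPM (-1.31 ± 0.18, edgeR adjusted p = 2e-06). Tubb3, a beta-tubulin best known from neurons, went from 18.6 and 17.6 to 9.16 and 8.12 CPM (-1.07 ± 0.12, edgeR adjusted p = 2.2e-08), after 0.444 ± 0.414 CPM at 0h. Bean1 and the Notch ligand Jag2 fell by 0.98 ± 0.17 and 0.84 ± 0.14. These 4 genes had been raised at 6h, and they fell while still above 0h. The granule protein gene chromogranin A (Chga) went from 33.5 ± 1.77 CPM at 0h to 22.2 and 21.4 CPM at 12h and 13.7 and 12.3 CPM at 24h (-0.75 ± 0.08). Stra6 (-0.80), C2cd4a (-0.79), Sln (-0.75), Acot1 (-0.74) and Alpi (-0.68) were also named, as were Mcpt8 and Tmem151a, whose values are given with their groups. The calls in this paragraph held except that of Alpi, lost without 12h replicate 1 (edgeR adjusted p = 0.076).

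Mast cell and basophil genes fell in 4 of 8 tested cases (50%, against 3.04% of all genes), with a median of -0.29. None was higher by edgeR or DESeq2 (1 at an unadjusted p under 0.05). Mcpt8, a basophil protease, went from 11.6 and 12.4 to 6.55 and 7.03 CPM (-0.82 ± 0.11, edgeR adjusted p = 2e-06). Milr1, an inhibitory receptor of mast cells, went from 37.99 and 36.0 to 24.1 and 26.0 CPM (-0.56 ± 0.07). Hdc, which makes histamine, fell by 0.29 ± 0.05 and the carboxypeptidase Cpa3 by 0.28 ± 0.07. The last pair lost the call without 12h replicate 1 (Hdc, edgeR adjusted p = 0.06) and without 12h replicate 2 (Cpa3, edgeR adjusted p = 0.21). The receptor gene Kit (0.12), the transcription factor genes Gata2 (0.03) and Gata1 (-0.79 ± 0.37, edgeR adjusted p = 0.22) and the IgE receptor gene Ms4a2 (-0.20) were not called. Of the 15 members on the list 6 had 0 counts in all 12h and 24h libraries and were not tested. They were Fcer1a, Cma1, Tpsab1, Tpsb2, Prss34 and Mcpt4.

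DNA replication genes were lower by small amounts. Of 40 genes of G1-S and DNA replication 19 were called lower (47.5%, against 3.04% of all genes) and 0 higher, with a median of -0.16. Both 24h libraries lay below both 12h libraries for 35 of the 40, and 49.2% of all genes did not overlap in either direction. At an unadjusted p under 0.05, 32 were lower and 0 higher, against 2804 of all 14263 genes in either direction. DESeq2 called 17 lower and 0 higher. Lig1, a DNA ligase, went from 209 and 212 to 179 and 185 CPM (-0.21 ± 0.04, edgeR adjusted p = 0.001), and its call held. Mcm7 of the replicative helicase went from 343 and 347 to 306 and 305 CPM (-0.18 ± 0.04), and Pcna, the polymerase clamp, from 449 and 440 to 399 and 390 CPM (-0.17 ± 0.04). Their calls were lost without 12h replicate 2 (Mcm7, edgeR adjusted p = 0.094) and without 12h replicate 1 (Pcna, edgeR adjusted p = 0.11). The number called lower was 4 without 12h replicate 1, 2 without 12h replicate 2, 10 without 24h replicate 1, and 8 when 24h replicate 2 was left out. Of 56 mitosis genes 4 were called lower (Cdc20, Ccnf, Nusap1 and Racgap1), 7.14% against 3.04% of all genes. Higher calls numbered 0, 0 also by DESeq2 and 1 at an unadjusted p under 0.05. None of these 4 calls held, and the list gave 0 when 12h replicate 1 was left out, 1 without 12h replicate 2 or 24h replicate 2 and 2 without 24h replicate 1. Replication-dependent histones went the other way. Of 17 tested 1 was called higher and 0 lower, against 3.41% and 3.04% of all genes, and DESeq2 called 0. Their median was 0.19, with 13 changes above 0 and 4 below. Of 17 tested CDK inhibitors and G1 cyclins 29.4% were called, against 6.46% of all genes. The 1 called higher was the cyclin gene Ccnd2 (0.27 ± 0.05), and its call held. The 4 called lower were Cdkn1a (-0.22), Ccng1 (-0.19), Cdkn2c (-0.30) and Cdk4 (-0.14), and none of these held. The number lower was 1 without 12h replicate 1 or 12h replicate 2 and 2 without 24h replicate 2.

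Genes of metabolism, the cytoskeleton and the endoplasmic reticulum moved both ways. Beside the counts below stand 3.41% of all genes called higher and 3.04% called lower. On the glycolysis and hypoxia list 7 of 28 genes were called higher and 2 lower, and Vegfa, which encodes a vascular growth factor, rose from 69.1 and 68.8 to 98.9 and 99.2 CPM (0.52 ± 0.05, edgeR adjusted p = 4.1e-09). Bnip3 (0.39) and Pdk1 (0.31) rose as well, and these 3 calls held. The list gave 3 rises without 12h replicate 2 and 4 without 24h replicate 2, and its falls numbered 0 without 12h replicate 1 or 24h replicate 1 and 1 without 12h replicate 2. On the actin, S100 and annexin list 7 of 30 were higher and 6 lower. Anxa1 rose by 0.41 ± 0.05 and the actin-severing protein gelsolin (Gsn) fell by 0.26 ± 0.04, and both calls held. The falls numbered 1 without 12h replicate 1 or 24h replicate 2, 2 without 12h replicate 2 and 4 without 24h replicate 1. Endoplasmic reticulum chaperone and unfolded protein response genes gave 3 rises and 6 falls among 26. Sel1l rose by 0.26 ± 0.04, Sdf2l1 fell by 0.30 ± 0.05 and Edem1 fell by 0.21 ± 0.04, all held. The falls numbered 2 without 12h replicate 1 or 12h replicate 2 and 3 without 24h replicate 2, and the rises 1 when any 1 of these 3 libraries was left out. Of 24 integrin and adhesion genes 4 were called higher and 2 lower, with a median of -0.02. The rises of Itgb7 (0.33) and Itgal (0.36) held, and those of Itgam (0.20) and Itgb2 (0.14) and the falls, among them Itgb5 (-0.19), did not. Leaving out 12h replicate 1 gave 2 rises and 0 falls, and leaving out either 12h replicate 2 or 24h replicate 2 gave 2 rises and 1 fall. Of 7 tested chemokine genes Ccl6 was called higher (0.58) and Ccl9 (-0.35) and Ccl3 (-0.38) lower. The calls of Ccl6 and Ccl9 held, and that of Ccl3 was lost without 12h replicate 2 (edgeR adjusted p = 0.079).

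Over all genes edgeR called 6.46%. In 6 of the 46 lists no member was called by edgeR or DESeq2. They were cytosolic ribosomal proteins (49 tested), proteasome (31), caspases and death receptors (25), autophagy (24), genes on mitochondrial DNA (13) and ERK feedback genes (12). Of their 154 tested members 8 were higher and 18 lower at an unadjusted p under 0.05, against 2804 of all 14263 genes in either direction. The proteasome list gave 10 of these falls and 0 of the rises, with a median of -0.06. Both 24h libraries lay below both 12h libraries for 18 of its 31 genes and above for 2. Over all genes 49.2% did not overlap in either direction. Ribosome biogenesis had 1 call among 36 genes, Nop56 (0.22 ± 0.04). Cholesterol synthesis genes, which gave 20 falls and 0 rises among 25 at 6h against 0h, gave 2 rises (Sqle, 0.15 and Nsdhl, 0.22) and 2 falls (among them Insig1, -0.20) in the late step, none of which held.

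The late step was set against the first step, 6h against 0h, which shares no library with it. Of the 487 late rises 193 (39.6%) were also called higher at 6h, which is 13.9% of the 1389 early rises, and 10 (2.05%) had been called lower. Of the 434 late falls 156 (35.9%) were also called lower at 6h, which is 12.7% of the 1224 early falls, and 66 (15.2%) had been called higher. For comparison, early rises were 9.74% and early falls 8.58% of all genes tested. Most early changes made no further call, as was so for 13342 of all 14263 genes. Of 331 genes up at least 2-fold by 6h, 35 were higher late (10.6%, against 3.41% of all) and 27 lower (8.16%, against 3.04%). The other 269 were not called in the late step, and the median late change of the 331 was 0.03. Over the 921 genes called late, Pearson's r between both changes was 0.189, a value across genes that share all their libraries.

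**Figure D5:**
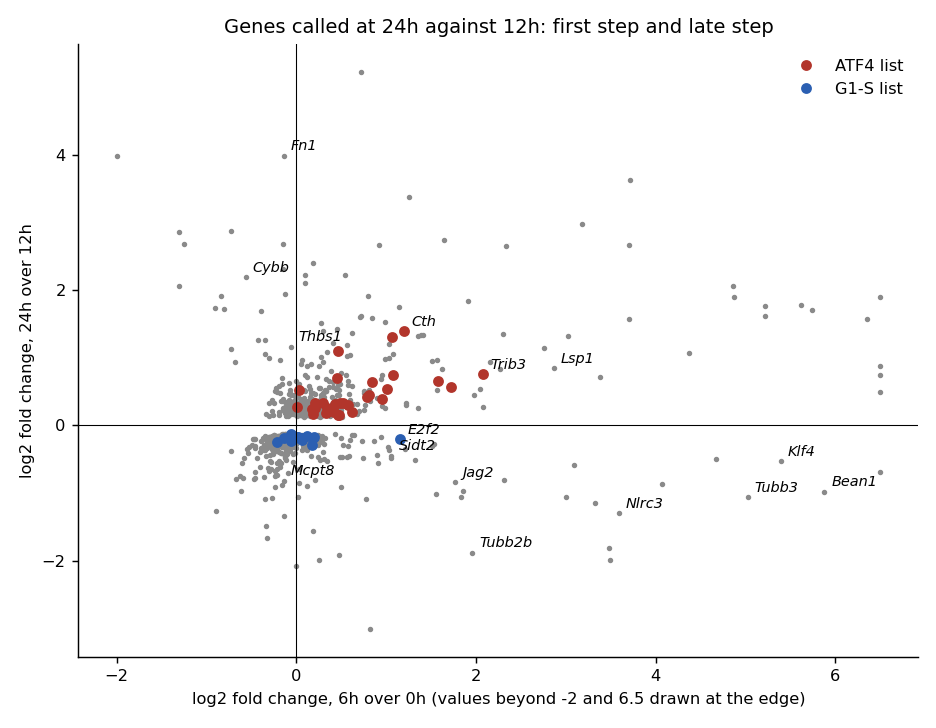
Log2 fold change of 24h over 12h (vertical axis) against that of 6h over 0h (horizontal axis, values beyond -2 and 6.5 drawn at the edge) for the 921 genes called at 24h against 12h, 1 point per gene, with called members of the ATF4 list in red and of the G1-S list in blue. ATF4 genes lie upper right or near the vertical axis, while Klf4, Tubb3, Nlrc3 and Bean1 lie lower right, raised early and falling late.

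The rule for turned genes named 8 that went down after an early rise of at least 2-fold: Nlrc3, Tubb3, Bean1, Jag2, Tmem151a, Cavin1, Klf4 and its relative Klf11. Tmem151a went from 0.0460 CPM at 0h to 12.6 CPM at 6h on average, then to 6.94 and 7.10 CPM at 12h and 4.39 and 4.32 CPM at 24h (-0.69 ± 0.15, edgeR adjusted p = 0.0023). Cavin1 (-0.58) and Klf11 (-0.52) lost their calls without 24h replicate 2, at an edgeR adjusted p of 0.40 and 0.36, and the other 6 held. Of 17 tested KLF and SP genes none was called higher by edgeR or DESeq2, which in so few genes is near the share of all genes (3.41%). By edgeR 2 were called lower (11.8%, against 3.04% of all genes). At an unadjusted p under 0.05, 3 were higher and 3 lower, against 2804 of all 14263 genes in either direction. At 6h 9 had been called higher, against 9.74% of all genes. Klf3, which rose 2.30 at 6h, was not called (0.12). The rule for turned genes also named 8 that went up after an early fall. Pilra, an inhibitory myeloid receptor, went from 5.66 CPM at 0h to 3.49 CPM at 6h on average, and from 4.25 and 5.01 CPM at 12h to 9.05 and 8.60 CPM at 24h (0.93 ± 0.14). Dio2 and Ccdc80 rose by 0.32 each and held with Pilra. Nsdhl, Clec4e, Ero1l, Gapt and Gfi1 rose by 0.16 to 0.22 and lost the call with a library fewer, at edgeR adjusted p of up to 0.34 (Gfi1 without 12h replicate 1).

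A test of the difference between steps called 1035 genes (7.26%) for late minus first, 324 higher (2.27%) and 711 lower (4.98%). Steps were compared whole, with no account taken of the longer interval of the late step. Among the 6 with the smallest adjusted p on the higher side were Thbs1 (difference 1.22 ± 0.07, edgeR adjusted p = 6.2e-16), Cybb (2.75 ± 0.29) and the pattern receptor Tlr2 (1.15 ± 0.15). Tlr2 went from 9.89 and 9.48 to 18.6 and 19.3 CPM in the late step. Hspa5, the main chaperone of the endoplasmic reticulum, was higher by 0.46 ± 0.06, having fallen by 0.42 in the first step and not being called in the late one (0.04). Gapt (0.49) and Hmgcs1 (0.53) had also fallen in the first step. On the lower side stood Klf4, the scaffold gene Ahnak, Sidt2, Tubb3, Nrbp2 and Klf3. Ahnak had risen by 5.99 at 6h and was level late (0.03, not called). Sidt2, a lysosomal membrane protein, went from 314 and 310 CPM at 12h to 224 and 232 CPM at 24h (-0.45 ± 0.04, edgeR adjusted p = 2.3e-10), after 125 ± 1.25 CPM at 0h. Leaving out 0h replicate 2 gave 652 such genes, leaving out 12h replicate 2 gave 653, and DESeq2 gave 593.

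Against the step from 6h to 12h, 621 genes (4.35%) differed, 242 higher (1.70%) and 379 lower (2.66%). Both steps use the 12h libraries, which the single contrast takes into account, but leaving out 12h replicate 2 gave 98 such genes, leaving out 12h replicate 1 gave 196, and DESeq2 gave 248. Immediate early genes were on the lower side. Egr1, a rapidly induced factor, rose by 5.25 from 6h to 12h and by 0.44 ± 0.09 from 16.2 and 18.5 to 22.1 and 24.9 CPM in the late step (difference -4.81 ± 0.27, edgeR adjusted p = 3.3e-15). Jun rose by 2.90 and then by 0.29 (difference -2.61 ± 0.18). The late calls of Egr1 and Jun were lost without 12h replicate 1 (edgeR adjusted p = 0.12) and without 24h replicate 2 (edgeR adjusted p = 0.31). Fosb and Klf2 rose by 3.98 and 1.75 from 6h to 12h and were not called in the late step (-0.58 and -0.29), nor was the cytokine oncostatin M (Osm, -0.16). On the higher side were Thbs1 (1.44 ± 0.09), Vldlr (0.88 ± 0.13) and the myeloid receptor Cd300lf (1.45 ± 0.21), which went from 5.85 and 6.14 to 12.1 and 12.0 CPM. Mt1, Ms4a3 and Rbmx fell by 0.47 to 0.67 from 6h to 12h and were not called in the late step.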

How the data were processed

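The authors deposited raw read counts per Ensembl gene, 1 file per library, with no normalization. Per the submitters' processing notes, STAR, SAMtools 1.3 and HTSeq 2.0.3 were used with mm10. Per the labels' protocols, RNA came from RNeasy columns and sequencing libraries from a TruSeq PE kit. Annotation, strand setting, filters and the STAR version: not given in the sources used here. Overlapping and antisense genes may therefore share reads, and genes with close copies are uncertain.

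Of 47069 gene rows 46574 matched GENCODE M21 (mm10), and 5 summary rows were left out. edgeR 4.0.16 (R 4.3.3) kept 14263 genes with filterByExpr, scaled the libraries by TMM and fitted all 8 libraries with a mean per time point in 1 quasi-likelihood model. Tests were two-sided with Benjamini-Hochberg adjustment over all genes and a threshold of 0.05, and glmTreat tested a fold of 1.5. SEs were derived from the F statistics. Ratios of counts carry exact 95% binomial intervals, which cover counting error only. A gene with 0 counts could stand at up to 0.115 to 0.128 CPM (3 counts) at 12h or 24h. The pipeline was tested on simulated data.

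The comparison, the 46 gene lists, the 8 marker lists and the promoter elements were chosen with earlier results of these data known. Named genes were Klf4, the 12 largest rises and 12 largest falls among called genes with a mean log2 CPM of at least 2 whose libraries did not overlap, 8 genes turned each way since 6h, the 6 strongest step differences each way, and up to 6 members per list by smallest adjusted p, or every called member where 5 or fewer were called. Predicted models were left out, and some genes that the rule names are not reported here. Lsp1, Slc7a7, Pycr1 and genes named for a promoter element or as uncalled members of a list were picked after their values were seen. Alternatives were DESeq2 1.42.0, DESeq2 size factors, 2 other filters, a replicate block, the 4 libraries alone, leaving out each library and GC and length corrections. Where this left 1 library at a time point, it was assumed to vary like the others.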

Additional observations from a re-analysis of the deposited data

How the results depend on the processing

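Leaving out 1 library in turn moved the calls at 24h against 12h most, from 921 to between 367 and 1254. Rises ranged from 225 to 637, falls from 142 to 683, genes past a fold of 1.5 from 24 to 45, late minus first from 652 to 1306 and late minus second from 98 to 822. DESeq2 gave 445 calls, 209 higher and 236 lower, with 11 past a fold of 1.5, 593 for late minus first and 248 for late minus second. A stricter filter on low counts left 15 past a fold of 1.5. Correcting for GC content and length and centring on the average gene gave 760 falls, 1915 for late minus first and 1030 for late minus second. The other planned settings kept the counts within 1.5 times. The median of the MHC class I list, -0.05, ranged from -0.13 to 0.0047 with 1 library left out and was 0.0047 without 24h replicate 2. The Klf4 fall passed in every setting run. For single named genes 4922 results kept their side of the threshold, 309 lost it, 193 gained it and 0 reversed. With the replicate number as a block 836 genes were called, all among the 921. The replicate numbers share no deviation (r of -0.017 to 0.021 between time points), so this block is not a pairing from the design. Low counts limit what can be seen, since changes of genes near the filter rest on few reads.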

Other observations

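Some tubulin genes other than Tubb3 were lower at 24h as well, a family looked up after its values were seen. Of 21 Tuba, Tubb, Tubd, Tube and Tubg entries in the files 19 were tested, among them the pseudogenes Tubb4b-ps1 and Tubb4b-ps2, which were not called. By edgeR 8 were called lower, against 3.04% of all genes, and 0 higher. The median change of the 19 was -0.17. Tubb2b went from 6.18 and 5.51 CPM at 12h to 1.48 and 1.70 CPM at 24h (-1.88 ± 0.22, edgeR adjusted p = 1.3e-07), after 1.34 CPM at 0h on average. Tuba1a went from 109 to 75.8 CPM on average (-0.52) and Tubb2a from 44.6 to 31.4 CPM (-0.50). Tubb2b, Tubb3, Tuba1a, Tubb2a and Tubb4b were called with each of the 8 libraries left out, and Tubb1, Tuba1c and Tuba1b were not.

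A group of genes nearly silent until 12h appeared at 24h, also picked after their values were seen as the largest rises below the level at which genes were named. The receptor gene Sirpb1c had 1 count at 12h and 50 at 24h, a ratio of depth-scaled counts of 46.5 (95% counting interval 7.97 to 1870). Stmn2, a microtubule regulator, went from 6 to 82 counts (12.7, 5.6 to 35.6) and Slurp1 from 11 to 95 (8.03, 4.29 to 16.6). Outside the 12 with the largest change, the myeloid receptor gene Cmklr1 had 0 counts at 0h, 38 at 12h and 133 at 24h. The edgeR calls of these 4 genes passed with each library left out. Sirpb1c, Stmn2 and Slurp1 passed the count filter only through the 24h libraries, where they are high. For these genes passing again is therefore no independent support.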
